A study of Mus musculus with 31 samples.

Results

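MPP2 and MPP4 are populations of multipotent progenitors sorted from the bone marrow of wild-type C57BL/6 mice, and they were compared here by their transcripts on microarrays. The members are the 3 arrays titled as MPP2 and the 5 arrays titled as MPP4, which makes 8 of the 31 arrays of the series. Both gates took lineage-negative, cKit+ and Sca1+ cells. MPP2 cells were Flk2-, CD48+ and CD150+. MPP4 cells were Flk2+, with no CD48 or CD150 gate given. Each array held RNA from 20000 cells sorted in 2 passes, and the labels call the replicates biological but give no sex, age, animal or pool for them. The other 23 arrays cover stem cells (LT-HSC and ST-HSC), MPP3 (Flk2-, CD48+, CD150-), common myeloid progenitors (CMP), granulocyte-macrophage progenitors (GMP), pre-granulocytes (PreGr) and granulocytes (Gr). They entered the models too, and the MPP3 arrays also form part of a difference described below.

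Multipotent progenitors lie between the stem cell and the committed progenitors of blood. They no longer renew themselves for long, and they can still give rise to several lineages. MPP2 is known for output that leans to megakaryocytes, the cells that shed platelets, and to red cells, while MPP4 (also called the lymphoid-primed progenitor) leans to lymphocytes. The comparison asks which genes of these lineages differ in transcript level before commitment. GATA and ETS family transcription factors drive the megakaryocyte and red cell programme, and lymphoid priming is marked by transcripts of the antigen receptor machinery. The arrays are bulk measurements, so fewer cells with a transcript and less of it per cell cannot be told apart.

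The deposited arrays fall into 5 sets, seen in their medians and in probe values that are exactly equal between arrays of a set. The labels do not name these sets. MPP2 1 to 3 lie in set 3 with MPP3 1 and 2, MPP4 1 to 3 in set 4 with the CMP arrays, and MPP4 4 and 5 in set 2 with MPP3 3. No set holds both MPP2 and MPP4. The array medians were 7.78 to 7.80 (log2) in MPP2 and 6.91 to 7.05 in MPP4 as deposited, and the median gene differed by 0.80. All arrays were therefore brought to 1 distribution by quantile normalization before any comparison, and all levels below are log2 values on that scale. Even then a shift of single genes between sets and a difference between populations cannot be told apart from these 8 arrays alone. A second model gave each set its own shift per gene. Its difference is the MPP2 mean minus MPP3 1 and 2, plus MPP3 3 minus the mean of MPP4 4 and 5, so it rests on the single array MPP3 3 and gives MPP4 1 to 3 no weight. A gene was called higher or lower only where both models (limma, 9 population means, 31 arrays) had a Benjamini-Hochberg adjusted p under 0.05 in 1 direction. Below, the first difference given for a gene is from the quantile-normalized model, the second from the set-adjusted model, and both are MPP2 minus MPP4.

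By this rule 230 of 19938 genes (1.15%) were called. MPP2 was higher for 61 genes (0.306%) and lower for 169 (0.848%). The quantile-normalized model alone called 3300 genes (16.6%), of which 1749 (8.77%) had MPP2 above and 1551 (7.78%) below. The set-adjusted model alone called 541 (2.71%), with 266 (1.33%) above and 275 (1.38%) below. Counts of a model alone, here and below, include the genes called in both models. Without those, 3070 and 311 remain. No gene was called in opposite directions by the 2 models. In 57 of the 61 genes and 142 of the 169 the MPP2 and MPP4 arrays did not overlap, against 10.2% (MPP2 above) and 8.61% (MPP2 below) of all genes. The calls were made on these same arrays, so little overlap follows largely from the call and adds no support to it. For the 12 largest genes per direction named below, absence of overlap was required by the choice. A 2-fold difference in both models was exceeded by 12 of the genes higher in MPP2 and 71 of those lower. With each array centred on its median in place of quantile normalization, 125 genes were called in both models, 14 higher and 111 lower, and with deposited values 107, 82 higher and 25 lower. Of the genes named below, Gp5, Cd9, F2r, Itga2b, Vwf, Gata2, Zfpm1, Tal1, Tuba8, Plxnc1, Tgfbr3, Tek, Aspm, Haus8, Olfr417, Ltb, Irf8, Gimap7, Ctsg and Cd24a lost the call with median centring, each with the sign of its difference kept. With only the stem cell and multipotent progenitor arrays in the fits 61 genes were called, 6 higher and 55 lower. Of the 39 named genes that were called, 19 lost the call there, and 22 lost it with deposited values. Gp5, Cd9, F2r, Itga2b, Vwf, Gata2, Zfpm1, Tal1 and Rag2 lost it in both of these. So did Tuba8, Plxnc1, Tgfbr3, Tek, Aspm, Haus8, Ltb and Cd24a. Cd53 and Olfr248 lost it in the first alone, and Cd52, Clec12a, Ctsg, Gimap7 and Irf8 with deposited values alone. Single arrays moved the count too, to 99 without MPP3 1, 146 without MPP3 2 and 523 without MPP2 3. The number of arrays limits the precision. The p-values rest on a spread pooled over all arrays and populations of the series, not on that of the MPP2 and MPP4 arrays alone.

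**Figure D1:**
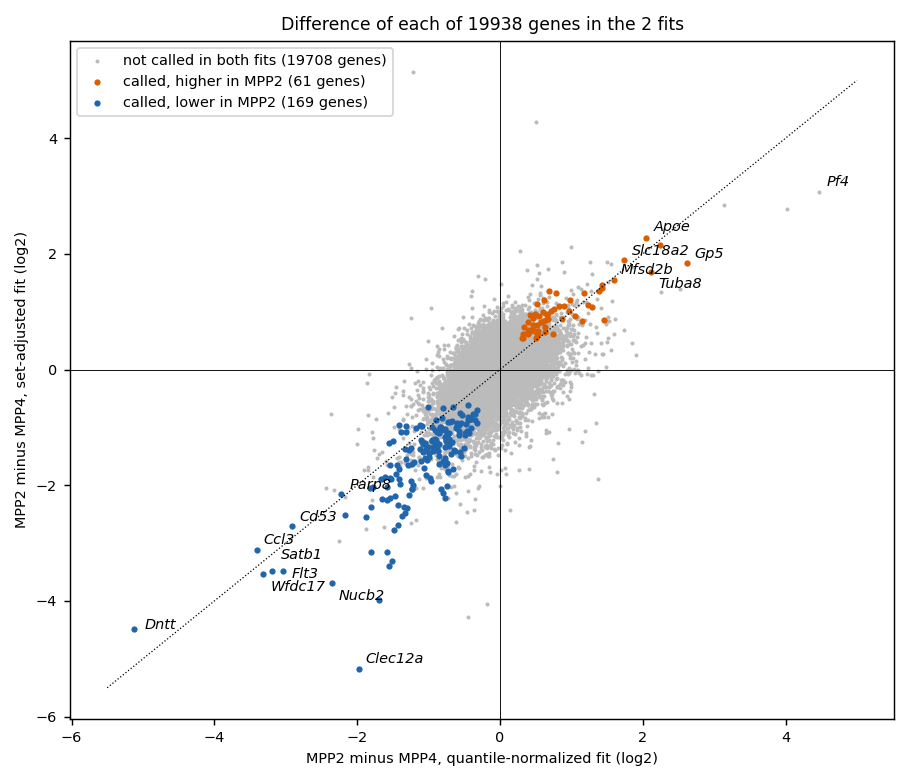
Each point is 1 of 19938 genes, with the MPP2 minus MPP4 difference (log2) in the quantile-normalized fit on the horizontal axis and in the set-adjusted fit on the vertical axis. Orange points are the 61 genes called higher in MPP2 and blue points the 169 called lower, and the dotted line marks equal differences. Dntt lies farthest to the lower left, Clec12a lies well below the line, and Pf4, far to the right, is grey because the set-adjusted fit did not call it.

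Genes of the platelet surface stood among the largest differences in favour of MPP2, and in the quantile-normalized model the lymphoid gene Dntt was the largest in favour of MPP4. The RefSeq promoters (GRCm38.p6) of Gp5 and Dntt are shown, with those of Itga2b and Pf4. Itga2b was called with a smaller difference than Gp5, and Pf4, a gene of platelet granules, was not called. The sequences are the 250 bases before the annotated start, 5′ to 3′ on the strand of the gene. Gp5 lies on the minus strand at chr16:30310782-30311031, Itga2b on the minus strand at chr11:102469884-102470133, Pf4 on the plus strand at chr5:90772185-90772434 and Dntt on the plus strand at chr19:41029025-41029274. Capitals mark matches to AGATAA (or TTATCT on the other strand), the letters that GATA factors favour, and to GGAAG (or CTTCC), a core that ETS factors favour.
Gp5: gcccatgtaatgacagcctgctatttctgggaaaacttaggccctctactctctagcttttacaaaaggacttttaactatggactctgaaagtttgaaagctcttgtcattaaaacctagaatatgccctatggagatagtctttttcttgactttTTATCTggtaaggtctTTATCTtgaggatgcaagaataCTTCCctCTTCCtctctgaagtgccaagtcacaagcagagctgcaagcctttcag
Itga2b: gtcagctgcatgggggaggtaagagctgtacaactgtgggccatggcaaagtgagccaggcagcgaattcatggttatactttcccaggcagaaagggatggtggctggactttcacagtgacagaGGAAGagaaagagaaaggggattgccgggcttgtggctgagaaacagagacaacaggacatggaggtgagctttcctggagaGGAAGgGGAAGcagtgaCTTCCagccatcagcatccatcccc
Pf4: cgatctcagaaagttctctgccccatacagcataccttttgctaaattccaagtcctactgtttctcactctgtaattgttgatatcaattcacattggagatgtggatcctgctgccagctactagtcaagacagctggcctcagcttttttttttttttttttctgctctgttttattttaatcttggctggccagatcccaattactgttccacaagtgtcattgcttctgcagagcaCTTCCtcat
Dntt: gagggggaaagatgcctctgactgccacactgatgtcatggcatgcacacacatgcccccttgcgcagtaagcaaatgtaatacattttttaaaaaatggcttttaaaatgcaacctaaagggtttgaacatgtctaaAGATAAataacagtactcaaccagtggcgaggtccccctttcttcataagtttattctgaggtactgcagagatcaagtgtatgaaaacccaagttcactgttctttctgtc

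The Gp5 promoter holds 2 GATA-type matches, which begin 93 and 77 bases before the start, and 2 ETS-type matches at 55 and 48. Itga2b holds 4 ETS-type matches, at 124, 42, 36 and 25 bases, and no AGATAA in this window. Pf4 has 1 ETS-type match 9 bases before the start. Dntt, which differed in the other direction, has 1 GATA-type match at 112. Over all 32851 promoter windows of 27025 genes, 9.99% hold AGATAA on either strand and 64.1% hold GGAAG. Of the 230 called genes 187 have a sequence in the table. AGATAA was present in 9 of 62 windows (14.5%) of the genes higher in MPP2 and in 14 of 199 (7.04%) of the genes lower. GGAAG was present in 67.7% and 68.8% of these windows. Genes with several starts count several times, so these shares are a description, and a match is not a site that a factor was shown to bind.

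Platelet and megakaryocyte genes were the group with the most members higher in MPP2. Of 28 members measured, 5 were higher (Gp5, Cd9, F2r, Itga2b and Vwf) and none lower, where 0.306% of all genes were higher. The median member differed by 0.36 in the quantile-normalized model and by 0.50 in the set-adjusted model, against 0.02 and 0.05 for all genes. In the quantile-normalized model alone 13 members were called, all with MPP2 above, where 8.77% of all genes were. With median centring or deposited values, none of the 28 was called in both models, and with only stem and multipotent arrays 1 was. In the plot of gene lists this group and the mitosis group lie to the right.

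Gp5, which encodes glycoprotein V of the platelet receptor for von Willebrand factor, stood at 9.32, 8.98 and 10.17 in the 3 MPP2 arrays. In the 5 MPP4 arrays it stood at 6.93, 7.07, 7.01, 6.77 and 6.58. Every MPP2 array lay above every MPP4 array. The differences were 2.62 (SE 0.25, limma adjusted p = 7.31e-08) and 1.83 (SE 0.49, limma adjusted p = 0.0468). The call was lost on leaving out any of MPP3 1, MPP3 2, MPP4 1, MPP4 2, MPP4 3, MPP4 4 or MPP4 5 (adjusted p 0.0548 to 0.163).

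Itga2b, the CD41 integrin chain that marks the megakaryocyte line, stood at 8.69, 8.79 and 9.25 in MPP2 and at 8.09, 7.93, 7.80, 8.14 and 7.71 in MPP4. The groups did not overlap, with MPP2 3 the highest array and MPP4 5 the lowest. The differences were 0.97 (SE 0.11, limma adjusted p = 1.86e-06) and 1.02 (SE 0.23, limma adjusted p = 0.022). Without MPP3 1 or MPP4 5 the set-adjusted call was lost (adjusted p 0.0794 to 0.0847). Cd9, a tetraspanin abundant on platelets, stood at 8.82, 8.95 and 9.52 in MPP2 and 7.72, 7.77, 7.79, 7.14 and 7.92 in MPP4. Again no array overlapped, and MPP4 4 was set apart at the bottom. Its differences were 1.43 and 1.42 (limma adjusted p = 6.41e-06 and 0.0228), and the call was lost without MPP3 1, MPP3 2 or MPP4 4 (adjusted p 0.0573 to 0.0709).

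F2r, the thrombin receptor PAR1, was at 9.29, 9.41 and 9.58 in MPP2 and 8.13, 8.30, 8.16, 8.93 and 8.36 in MPP4. MPP4 4 was the nearest to MPP2 but still below it. The differences were 1.05 and 0.93 (limma adjusted p = 1.27e-05 and 0.0401), and the call ended without MPP2 2, MPP3 1, MPP3 2 or MPP4 5 (adjusted p 0.0523 to 0.139). Vwf, von Willebrand factor itself, had the smallest difference of the 5. It was at 7.69, 7.97 and 7.91 in MPP2 and 7.38, 7.30, 7.39, 7.63 and 7.58 in MPP4, a gap between the groups of a few hundredths of a log2 unit. Its differences were 0.40 and 0.66 (limma adjusted p = 0.0494 and 0.0427), and leaving out any 1 of the 10 arrays tried ended the call (adjusted p 0.0563 to 0.173). Cd9 and Vwf each read higher in another population than in MPP2, as given below.

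Pf4, the chemokine platelet factor 4 stored in platelet granules, had the largest difference with MPP2 above of any gene in the quantile-normalized model but was not called. It stood at 11.33, 11.42 and 11.25 in MPP2, a nearly constant level at percentile 98.2 of all genes. In MPP4 it stood at 7.15, 6.49, 7.82, 6.28 and 6.59. The lowest MPP2 array therefore exceeded the highest MPP4 array by more than 3 log2 units. The first difference was 4.47 (SE 0.48, limma adjusted p = 6.43e-07) and the second 3.08 (SE 0.90, limma adjusted p = 0.0663). The MPP3 arrays read 8.32, 8.24 and 6.46, and the low MPP3 3 enters the set-adjusted difference directly. Other members with a difference in the quantile-normalized model only were the caveolar protein gene Cavin2, at 1.29 (limma adjusted p = 0.000891), the integrin chain gene Itgb3, at 0.64 (limma adjusted p = 0.013), and Gp9, a partner of glycoprotein V, at 0.50 (limma adjusted p = 0.00228). Their set-adjusted p values were 0.196, 0.226 and 0.0662. Of the listed platelet genes, 7 were not analysed here.

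**Figure D2:**
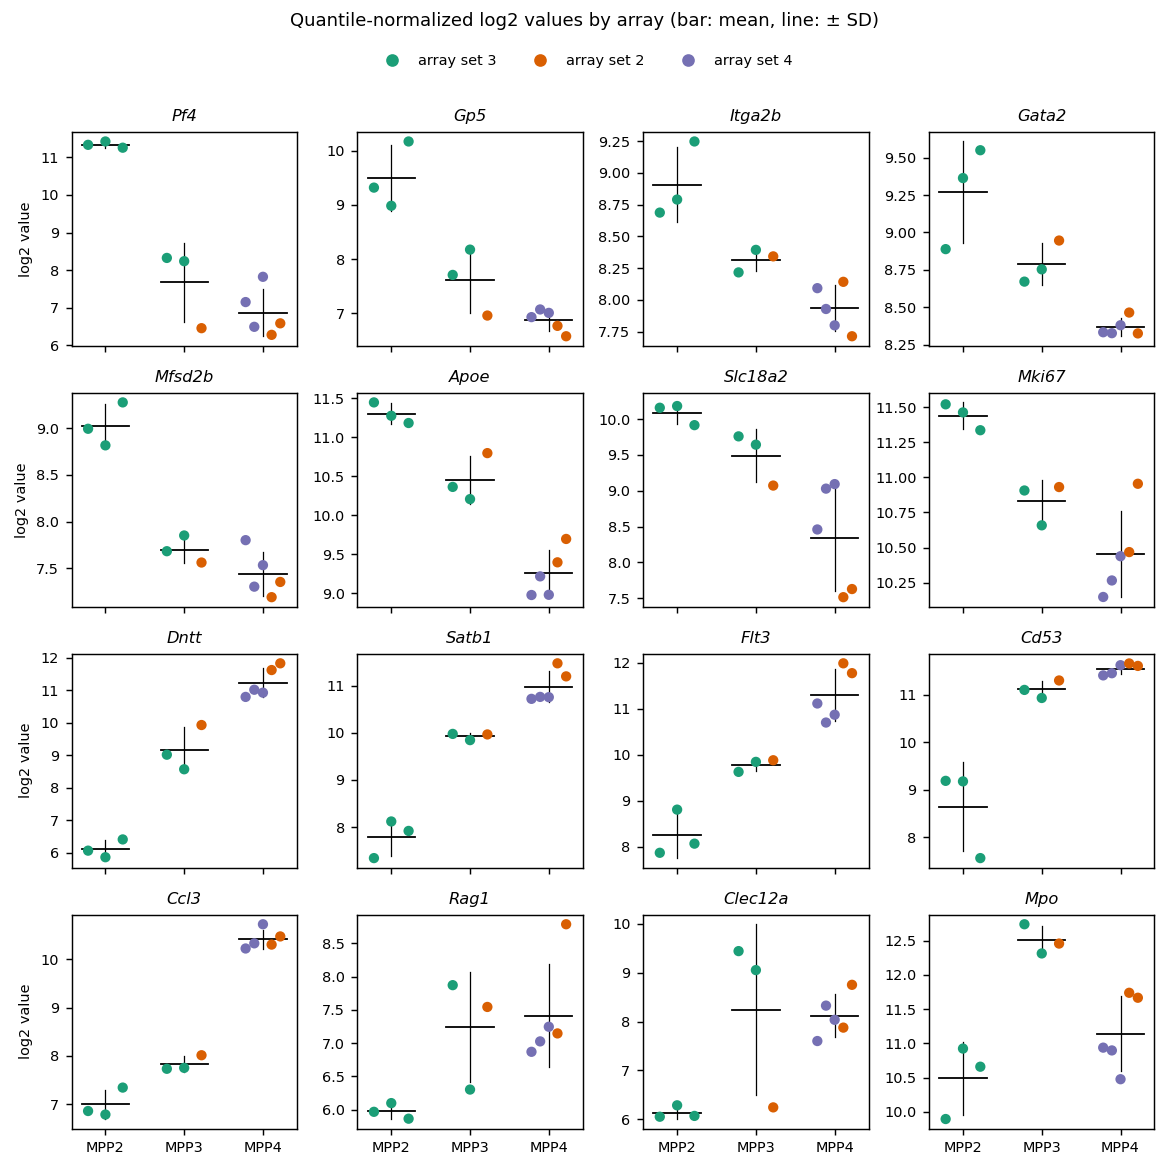
Each panel gives 1 gene, with the quantile-normalized log2 value of every MPP2, MPP3 and MPP4 array as a point coloured by its set of arrays; the bar is the mean and the line ± SD. Pf4, Gp5, Itga2b, Gata2, Mfsd2b, Apoe, Slc18a2 and Mki67 have all 3 MPP2 arrays above all 5 MPP4 arrays, and in Dntt, Satb1, Flt3, Cd53, Ccl3, Rag1 and Clec12a the order is turned round. In the Mpo panel MPP2 and MPP4 overlap and MPP3 is highest.

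Among the transcription factors of the megakaryocyte and red cell lines, 3 of 17 measured were higher in MPP2 and none lower, where 0.306% of all genes were higher. Gata2, a GATA factor of stem and megakaryocyte progenitors, stood at 8.89, 9.36 and 9.55 in MPP2 and at 8.33, 8.33, 8.38, 8.46 and 8.33 in MPP4. The MPP4 arrays were nearly equal and all lay below the lowest MPP2 array. The differences were 0.90 (SE 0.13, limma adjusted p = 2.44e-05) and 1.11 (SE 0.25, limma adjusted p = 0.0186), and the call was lost without MPP3 1 or MPP4 5 (adjusted p 0.051 to 0.0682). Zfpm1 encodes FOG-1, the partner protein of GATA1. It stood at 9.13, 9.17 and 9.07 in MPP2 and 8.30, 8.24, 8.10, 8.57 and 8.09 in MPP4, also without overlap. Its differences were 0.86 and 0.88 (limma adjusted p = 2.2e-05 and 0.0342), and it lost its call without MPP2 2, MPP3 1, MPP3 2 or MPP4 5 (adjusted p 0.0527 to 0.122).

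Tal1, a basic helix-loop-helix factor that works with GATA factors, stood at 9.27, 9.52 and 9.08 in MPP2 and 8.79, 8.86, 8.84, 8.52 and 8.43 in MPP4. The groups did not overlap, though MPP2 3 and MPP4 2 were close. Its differences were 0.61 and 0.83 (limma adjusted p = 0.000252 and 0.00684), and no single array left out ended its call. Gata1, the master factor of both lines, read 8.47, 8.93 and 8.67 in MPP2 and 7.35, 7.61, 7.07, 7.71 and 7.51 in MPP4. These too did not overlap, with differences of 1.24 (SE 0.15, limma adjusted p = 3.66e-06) and 0.98 (SE 0.31, limma adjusted p = 0.0846), so it was not called. Klf1, the red cell factor, read 7.46, 6.91 and 6.97 in MPP2 and 6.49, 6.41, 6.37, 6.50 and 6.76 in MPP4, with 0.61 and 0.57 and a set-adjusted limma adjusted p of 0.154. In the quantile-normalized model alone 7 of the 17 were called with MPP2 above and 1 (Lmo2) with MPP2 below, against 8.77% and 7.78% of all genes. Under median centring, with deposited values or with only stem and multipotent arrays, none of the 17 was called in both models.

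No gene of the red cell membrane or of haem synthesis was called in both models, of 25 measured, and 1 was higher without MPP4 2. The quantile-normalized model called 8, all with MPP2 above, where it called 8.77% of all genes above. The list median was 0.18 in that model and 0.11 in the set-adjusted one. Car1, carbonic anhydrase 1, had by far the largest of these differences. It read 11.89, 11.07 and 11.63 in MPP2 and 7.43, 9.58, 7.12, 6.83 and 6.64 in MPP4, which did not overlap. The differences were 4.01 (SE 0.48, limma adjusted p = 2.57e-06) and 2.78 (SE 0.83, limma adjusted p = 0.0712). Epor, the erythropoietin receptor, read 7.37, 7.48 and 7.25 in MPP2 and 7.35, 7.34, 7.33, 7.19 and 7.30 in MPP4, and these ranges overlap, with 0.07 and 0.28. Genes of mast cells, basophils and eosinophils were not called either, in 16 measured. The quantile-normalized model alone called 3, all with MPP2 above, and the set-adjusted model alone called 2, all below. Fcer1a, a chain of the high-affinity IgE receptor, read 6.98, 9.19 and 6.29 in MPP2 and 4.68 to 5.82 in MPP4. MPP2 2 was far above the other MPP2 arrays. Fcer1a differed by 2.25 in the first model (limma adjusted p = 0.00204) and by 1.33 in the second (limma adjusted p = 0.538).

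Several of the largest called genes in favour of MPP2 are not on the platelet lists. Apoe, the lipid carrier apolipoprotein E, stood at 11.45, 11.28 and 11.19 in MPP2 and at 8.98, 9.22, 8.98, 9.40 and 9.70 in MPP4. All arrays of MPP2 lay far above MPP4, with differences of 2.05 (SE 0.19, limma adjusted p = 6.34e-08) and 2.27 (SE 0.26, limma adjusted p = 2.68e-05). Slc18a2, the vesicular monoamine transporter, stood at 10.16, 10.18 and 9.92 in MPP2 and at 8.46, 9.03, 9.09, 7.51 and 7.63 in MPP4. MPP4 4 and 5, of 1 set, read lower than MPP4 1 to 3, of another, but both lay below MPP2. The differences were 1.74 (SE 0.26, limma adjusted p = 4.64e-05) and 1.89 (SE 0.31, limma adjusted p = 0.00147). Mfsd2b, which exports sphingosine-1-phosphate from red cells and platelets, stood at 8.99, 8.82 and 9.28 in MPP2 and 7.80, 7.30, 7.53, 7.19 and 7.35 in MPP4. These did not overlap, and the differences were 1.59 (SE 0.13, limma adjusted p = 2.19e-09) and 1.55 (SE 0.23, limma adjusted p = 0.000551). Apoe, Slc18a2 and Mfsd2b kept their calls in all 17 alternatives that gave both models.

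Tuba8, an alpha-tubulin, stood at 10.47, 9.87 and 10.83 in MPP2 and 7.97, 8.03, 8.40, 8.32 and 8.61 in MPP4. There was no overlap, with differences of 2.12 and 1.69 (limma adjusted p = 1.93e-08 and 0.0239) and a call that ended without MPP3 2 or MPP4 4 (adjusted p 0.0572 to 0.0837). Plxnc1, a receptor for semaphorin 7A, stood at 9.69, 9.76 and 10.03 in MPP2 and 8.57, 8.60, 8.68, 7.84 and 8.29 in MPP4. Its differences were 1.43 and 1.46 (limma adjusted p = 4.86e-06 and 0.0228), and its call ended without MPP3 1 or MPP4 4 (adjusted p 0.0641 to 0.0748). Tgfbr3, the TGF-beta co-receptor betaglycan, stood at 9.01, 8.38 and 8.54 in MPP2 against a narrow 7.54, 7.43, 7.52, 7.38 and 7.48 in MPP4. Its differences were 1.18 and 1.32 (limma adjusted p = 4.86e-06 and 0.0282), and its call ended without MPP3 1, MPP3 2 or MPP4 4 (adjusted p 0.053 to 0.074). All 3 genes were higher in every MPP2 array than in any MPP4 array.

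The olfactory receptor genes Olfr417 and Olfr248 were also among the largest. Olfr417 stood at 9.96, 9.07 and 9.62 in MPP2 and 7.06, 6.91, 7.13, 7.88 and 7.59 in MPP4, with no overlap and differences of 2.24 and 2.15 (limma adjusted p = 8.8e-08 and 0.00387). Olfr248 was dimmer, at 6.68, 6.94 and 7.60 in MPP2 and 5.74, 5.57, 6.36, 5.30 and 5.46 in MPP4. Its differences were 1.39 and 1.36 (limma adjusted p = 1.93e-05 and 0.0486), and it lost its call without MPP2 2, MPP3 1, MPP3 2, MPP4 1, MPP4 4 or MPP4 5 (adjusted p 0.052 to 0.111). Olfactory receptor genes belong to a large family with similar sequences, so signal shared with a related gene is possible and these values are uncertain.

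Of 27 receptors and parts of the antigen receptor machinery, 6 were lower in MPP2 (Dntt, Cd53, Cd52, Lax1, Rag2 and Ltb) and 1 was higher (Crlf2). Over all genes 0.848% were lower and 0.306% higher. The list median was -0.38 and -0.35 in the 2 models. The quantile-normalized model alone called 10 below and 2 above, against 7.78% and 8.77% of all genes. With deposited values, 3 members were called in both models, all lower. The count was also 3, all lower, with only stem and multipotent arrays.

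Dntt encodes terminal transferase, which adds bases at the joints of rearranging antigen receptor genes. It stood at 6.07, 5.87 and 6.42 in MPP2, at percentile 19.6 of all genes, and at 10.80, 11.02, 10.93, 11.63 and 11.84 in MPP4, at percentile 98. In the quantile-normalized model no other gene separated the groups as widely. The differences were -5.13 (SE 0.23, limma adjusted p = 1.87e-14) and -4.48 (SE 0.30, limma adjusted p = 8.19e-09). The first is a 34.9-fold difference in array signal, which has a floor, so the ratio of transcripts may be larger. MPP3 lay between, at 9.02, 8.58 and 9.94. Rag2, a subunit of the recombinase that cuts these genes, was dim in MPP2 at 5.16, 5.36 and 5.23 and read 5.73, 6.26, 6.53, 6.68 and 7.12 in MPP4. The groups did not overlap, with differences of -1.21 and -1.99 (limma adjusted p = 0.00105 and 0.0144), and without MPP3 1 the call was lost (adjusted p 0.0756). Rag1, the other subunit, read 5.97, 6.10 and 5.87 in MPP2 and 6.87, 7.03, 7.25, 7.15 and 8.78 in MPP4. MPP4 5 was far above the rest, and the differences were -1.44 (SE 0.34, limma adjusted p = 0.00526) and -1.53 (SE 0.70, limma adjusted p = 0.247), so Rag1 was not called.

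Cd53, a tetraspanin of leukocytes, stood at 9.19, 9.18 and 7.57 in MPP2 and at 11.41, 11.46, 11.62, 11.66 and 11.61 in MPP4. MPP2 3 was well below the other MPP2 arrays and all 3 lay below MPP4, whose arrays were tightly grouped. The differences were -2.91 (SE 0.23, limma adjusted p = 2.19e-09) and -2.71 (SE 0.49, limma adjusted p = 0.00451). Lax1, an adaptor that dampens lymphocyte receptor signals, stood at 6.71, 7.24 and 6.89 in MPP2 and 8.36, 8.35, 8.45, 8.85 and 8.42 in MPP4. These did not overlap, with differences of -1.54 and -1.65 (limma adjusted p = 7.31e-08 and 0.00524). Cd52, a small lymphocyte surface glycoprotein, stood at 8.82, 8.20 and 8.08 in MPP2 and 9.92, 9.61, 10.01, 9.70 and 9.24 in MPP4, with -1.33 and -2.47 (limma adjusted p = 0.00168 and 0.000398). Its set-adjusted difference was the larger, and MPP3 read 10.27, 10.58 and 9.06, with MPP3 3 lowest. Both Cd53 and Cd52 read higher in granulocytes than in MPP4, as given below.

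Ltb, the membrane cytokine lymphotoxin beta, was the one of these whose arrays overlapped, at 8.14, 8.72 and 8.85 in MPP2 and 9.90, 9.24, 9.02, 8.84 and 9.48 in MPP4. Its differences were -0.73 and -1.75 (limma adjusted p = 0.0329 and 0.0216), and the call ended without MPP2 1, MPP2 2, MPP3 2, MPP4 1 or MPP4 5 (adjusted p 0.054 to 0.223). Il7r, the interleukin 7 receptor chain that lymphoid precursors need, read 6.12, 5.74 and 6.11 in MPP2 and 5.88, 6.09, 6.79, 7.08 and 7.77 in MPP4. MPP4 1 and 2 lay within the MPP2 range, the differences were -0.73 (SE 0.35, limma adjusted p = 0.153) and -2.22 (SE 0.54, limma adjusted p = 0.0309), and Il7r was not called. Crlf2, a receptor chain for the cytokine TSLP, went against its list. Its MPP4 arrays lay between 7.95 and 8.30 and the lowest MPP2 array was at 8.61, so the groups did not overlap, with 0.65 and 0.85 (limma adjusted p = 0.000362 and 0.0348). The list had no higher member, so this call was lost, with median centring, deposited values, only stem and multipotent arrays, or without MPP2 1, MPP3 1, MPP3 2 or MPP4 4.

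Of 27 lymphoid transcription factors, 2 were lower in MPP2 and none higher, where 0.848% of all genes were lower. Satb1, a chromatin organiser of early lymphoid cells, stood at 7.34, 8.12 and 7.92 in MPP2 and at 10.72, 10.76, 10.75, 11.47 and 11.20 in MPP4. The groups lay far apart and MPP3, at 9.98, 9.84 and 9.96, was between them. The differences were -3.19 (SE 0.18, limma adjusted p = 2.31e-12) and -3.49 (SE 0.35, limma adjusted p = 4.44e-06). Irf8, a factor of B cell, dendritic and monocyte lines, stood at 7.08, 7.22 and 7.23 in MPP2 and at 7.32, 7.58, 7.57, 8.26 and 8.33 in MPP4. The gap was narrow, with MPP4 4 and 5 above the others, and the differences were -0.64 and -1.39 (limma adjusted p = 0.0182 and 0.00129). Without MPP2 1 the call was lost (adjusted p 0.0839). Ebf1, a B cell factor, overlapped between the groups, at 5.86, 5.92 and 5.81 in MPP2 and 5.76, 5.78, 5.92, 5.80 and 6.68 in MPP4, with differences of -0.12 and -0.08. Ikzf1 (Ikaros) overlapped too, with -0.30 and -0.55 (limma adjusted p = 0.0662 and 0.186). The first model called 7.78% of all genes below and 8.77% above. Factors called in it but not in both models, with MPP2 below, were Tcf4, Notch1 and Mef2c, at -0.77, -0.97 and -0.57. Their set-adjusted p values were 0.064, 0.197 and 0.319. Runx3 and Bcl11b were called in that model with MPP2 above, at 0.67 and 0.36 (limma adjusted p = 0.00454 and 0.00884), with set-adjusted p values of 0.103 and 0.511. The list median was -0.01 and -0.18.

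The Gimap family encodes GTPases of lymphocyte survival. Of 8 members 1 was lower in MPP2 and none higher, and 7 of 8 had negative differences in both models, with list medians of -0.64 and -0.98. Over all genes 0.848% were lower, and 5669 of 19938 had negative differences in both models. Gimap7 stood at 6.96, 6.62 and 6.46 in MPP2 and 8.51, 7.63, 8.15, 8.02 and 8.42 in MPP4. The arrays did not overlap, and the differences were -1.47 (SE 0.25, limma adjusted p = 0.000259) and -2.18 (SE 0.53, limma adjusted p = 0.0304). The call was lost without MPP3 1, MPP3 2 or MPP4 5 (adjusted p 0.0621 to 0.0831). These 8 genes lie beside each other in the genome and are alike in sequence, so shared signal among them is possible.

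**Figure D3:**
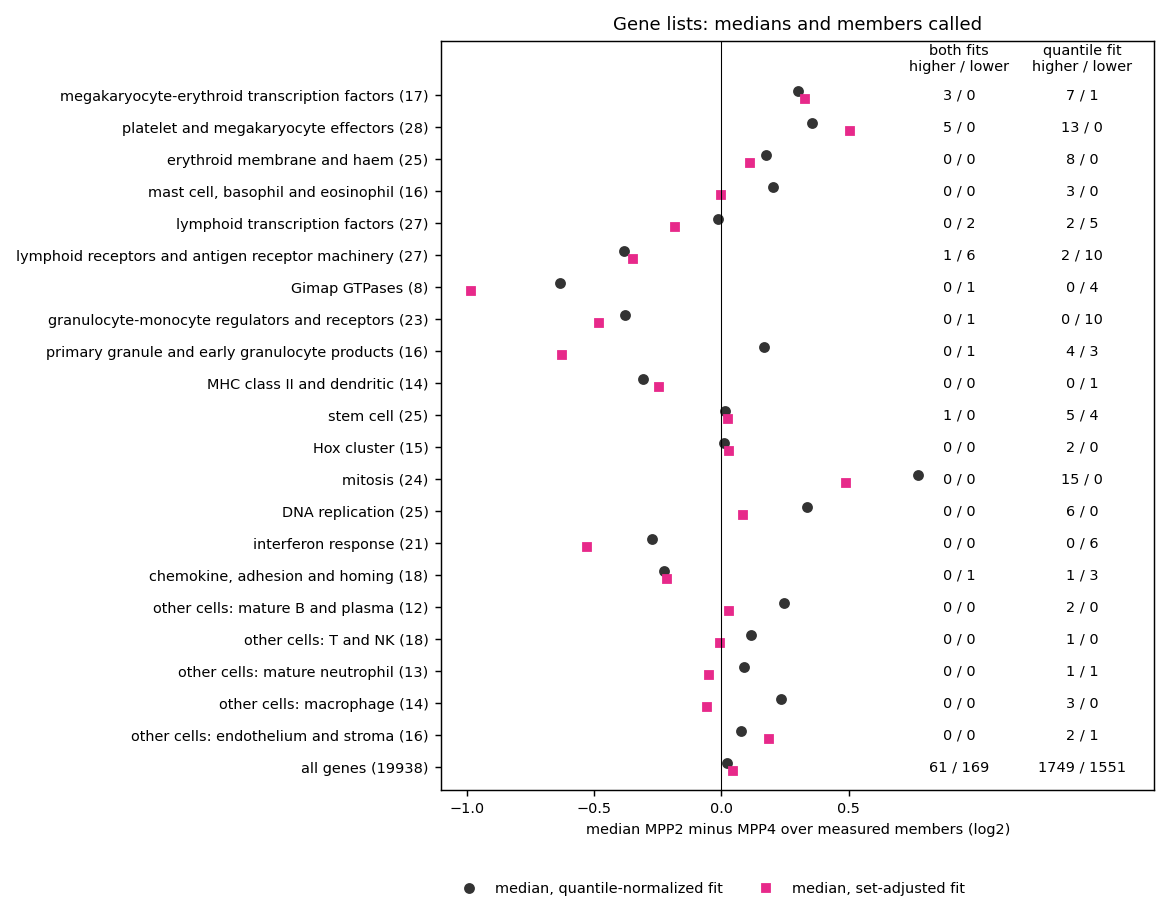
Each row is a gene list with its number of measured members in parentheses. Circles give the median MPP2 minus MPP4 difference in the quantile-normalized fit and squares that in the set-adjusted fit (log2), and the columns on the right give members called higher / lower in both fits and in the quantile-normalized fit alone. The platelet list has 5 higher and 0 lower in both fits, the lymphoid receptor list 1 and 6, and the mitosis list, with the largest median in the quantile-normalized fit, has 0 and 0.

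Of 23 regulators and receptors of the granulocyte and monocyte lines measured, 1 was lower in MPP2 and none higher. The quantile-normalized model alone called 10, all with MPP2 below. Over all genes 0.848% were lower in both models, and the quantile-normalized one called 7.78% below. The medians were -0.38 and -0.48. In both models the count was 2 with median centring and none with deposited values, and 2 without MPP2 1, MPP2 3 or MPP4 5. Clec12a, an inhibitory lectin receptor of myeloid cells, was the called one. It stood at 6.05, 6.29 and 6.07 in MPP2 and at 7.60, 8.32, 8.03, 7.88 and 8.75 in MPP4. These did not overlap, but the differences were -1.98 (SE 0.40, limma adjusted p = 0.00143) and -5.17 (SE 0.40, limma adjusted p = 6.64e-08), far apart. MPP3 read 9.44, 9.05 and 6.25, so MPP3 3, which alone links the sets in the set-adjusted difference, was at the MPP2 level while its replicates were above MPP4. Cebpa, the factor that starts the granulocyte line, read 8.25, 8.72 and 8.37 in MPP2 and 9.04, 8.77, 8.59, 9.57 and 9.04 in MPP4, which overlap, with -0.56 and -0.36 (limma adjusted p = 0.044 and 0.598). Spi1 (PU.1) and Csf3r, the G-CSF receptor, overlapped as well, with -0.17 and -0.62 for Spi1 and -0.27 and -0.96 for Csf3r.

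Of 16 genes for granule enzymes and other early granulocyte products 1 was lower in MPP2 and none higher. The quantile-normalized model alone called 4 with MPP2 above and 3 below. Over all genes 0.848% were lower in both models, and the quantile-normalized one called 8.77% above and 7.78% below. Ctsg, cathepsin G, stood at 7.25, 7.64 and 7.65 in MPP2 and 8.28, 9.25, 8.77, 8.65 and 9.31 in MPP4. The groups did not overlap, the differences were -1.34 and -2.37 (limma adjusted p = 0.00364 and 0.0429), and the call ended without MPP2 1, MPP2 2, MPP3 1, MPP4 3 or MPP4 5 (adjusted p 0.0519 to 0.166). Mpo, myeloperoxidase, was bright in both and overlapped, at 9.89, 10.92 and 10.66 in MPP2 and 10.94, 10.90, 10.48, 11.74 and 11.67 in MPP4. Its differences were -0.65 (SE 0.28, limma adjusted p = 0.111) and -1.28 (SE 0.54, limma adjusted p = 0.205), and MPP3 read above both, at 12.74, 12.31 and 12.46. The list median had opposite signs in the 2 models, 0.17 and -0.63. Of 14 genes of MHC class II and dendritic cells none was called, and the medians were -0.31 and -0.25.

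Several of the largest differences in favour of MPP4 were in genes on no lineage list. Ccl3, the chemokine MIP-1 alpha, stood at 6.86, 6.79 and 7.35 in MPP2 and at 10.22, 10.33, 10.72, 10.30 and 10.47 in MPP4, with differences of -3.41 (SE 0.28, limma adjusted p = 3.1e-09) and -3.11 (SE 0.44, limma adjusted p = 0.000398). Wfdc17, a small secreted protein of myeloid cells, stood at 6.41, 6.64 and 6.12 in MPP2 and at 9.22, 8.96, 9.77, 10.71 and 9.88 in MPP4, with differences of -3.31 (SE 0.30, limma adjusted p = 3.21e-08) and -3.54 (SE 0.55, limma adjusted p = 0.00107). In both genes every MPP4 array lay more than 2 log2 units above every MPP2 array. Parp8, an ADP-ribosyltransferase family member, stood at 8.73, 8.37 and 8.89 in MPP2 and at a very even 10.78, 10.93, 10.86, 11.02 and 10.91 in MPP4, with differences of -2.23 (SE 0.11, limma adjusted p = 1.13e-13) and -2.16 (SE 0.19, limma adjusted p = 3.78e-07). Sema3d, a secreted semaphorin, was dim in MPP2 at 5.59, 5.40 and 5.65 and stood at 7.19, 7.49, 7.89, 8.39 and 7.63 in MPP4, with differences of -2.17 (SE 0.16, limma adjusted p = 9.57e-10) and -2.51 (SE 0.32, limma adjusted p = 9.77e-05). MPP3 read 5.65, 5.92 and 5.75 for Sema3d, at the MPP2 level.

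Nucb2, nucleobindin 2, stood at 5.79, 5.82 and 6.70 in MPP2 and 7.78, 8.23, 8.51, 9.18 and 8.60 in MPP4, with -2.35 and -3.70 (limma adjusted p = 1.33e-06 and 0.000156). St8sia4, which builds polysialic acid, stood at 7.74, 7.85 and 8.42 in MPP2 and 9.48, 9.83, 9.83, 10.02 and 9.94 in MPP4, with -1.82 and -2.04 (limma adjusted p = 3.99e-09 and 0.000797). Neither gene overlapped between the groups. Ptgs2, the prostaglandin enzyme cyclooxygenase 2, varied more, at 7.21, 7.72 and 8.46 in MPP2 and 9.69, 9.69, 10.32, 9.61 and 9.05 in MPP4. It did not overlap, its differences were -1.87 and -2.54 (limma adjusted p = 0.00129 and 0.0102), and the call was lost without MPP3 1 (adjusted p 0.0512). Of the 39 named genes that were called, 13 kept the call in all 17 alternatives that gave both models. These were 3 of 19 higher in MPP2 (Apoe, Mfsd2b and Slc18a2) and 10 of 20 lower (Ccl3, Dntt, Flt3, Lax1, Nucb2, Parp8, Satb1, Sema3d, St8sia4 and Wfdc17).

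Genes of stem cell identity did not shift in 1 direction as a list. Of 25 measured 1 was higher in MPP2, where 0.306% of all genes were higher, and the medians were 0.02 and 0.03. The quantile-normalized model alone called 5 with MPP2 above and 4 below, against 8.77% and 7.78% of all genes. In both models none was called with median centring, deposited values or only stem and multipotent arrays, or without MPP2 2 or MPP3 2. The count was 2, all higher, without MPP2 1, MPP2 3 or MPP4 5. Tek, the angiopoietin receptor of stem cells and vessels, stood at 7.64, 7.85 and 8.11 in MPP2 and 6.94, 6.97, 7.13, 6.12 and 6.43 in MPP4. These did not overlap, the differences were 1.15 and 0.84 (limma adjusted p = 0.000155 and 0.0406), and the call ended without MPP2 2, MPP3 2 or MPP4 4 (adjusted p 0.0526 to 0.13). Mecom, a transcription factor that stem cells need, overlapped, at 9.04, 8.50 and 8.78 in MPP2 and 9.04, 9.14, 9.03, 8.82 and 8.49 in MPP4. Procr, the protein C receptor, read 7.20, 7.33 and 7.25 in MPP2 and 8.38, 8.02, 8.28, 7.47 and 8.06 in MPP4. MPP4 was above in every array, with differences of -0.78 (SE 0.20, limma adjusted p = 0.0088) and -0.82 (SE 0.27, limma adjusted p = 0.0996), so Procr was not called. Of 15 Hox cluster genes none was called, with medians of 0.01 and 0.03.

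Genes of cell division were called in the quantile-normalized model but not in both. Of 24 mitosis genes 15 were called in it with MPP2 above, 17 did not overlap with MPP2 above, and the median was 0.77. Over all genes 8.77% were called and 10.2% did not overlap in that direction. The set-adjusted median was 0.49 and no member was called in both models. Without MPP4 5, 3 members were called in both models, all higher, and 1 was called higher without MPP2 1, without MPP2 3 or without dim genes. Mki67, the proliferation marker Ki-67, read 11.52, 11.46 and 11.34 in MPP2 and 10.15, 10.27, 10.44, 10.47 and 10.95 in MPP4. The arrays did not overlap, and the differences were 0.98 (SE 0.28, limma adjusted p = 0.0156) and 0.88 (SE 0.24, limma adjusted p = 0.0563). Outside the list, 2 genes of the spindle were called higher. Aspm, a spindle pole protein, stood between 9.96 and 10.04 in the 3 MPP2 arrays and at 8.77, 8.64, 8.73, 8.50 and 9.20 in MPP4, with 1.23 and 1.12 (limma adjusted p = 0.000291 and 0.0489). Its call was lost without MPP2 1, MPP2 2, MPP3 1, MPP3 2, MPP4 1, MPP4 2, MPP4 3 or MPP4 4 (adjusted p 0.0563 to 0.147). Haus8, of the augmin complex, stood at 8.93, 8.97 and 8.41 in MPP2 and 7.43, 7.46, 7.34, 7.51 and 7.65 in MPP4, with 1.29 and 1.08 (limma adjusted p = 8.78e-07 and 0.0338), and its call was lost without MPP2 1, MPP2 2, MPP3 1, MPP3 2 or MPP4 4 (adjusted p 0.0572 to 0.102). In the 25 genes of DNA replication the medians were 0.34 and 0.09. The first model called 6, all with MPP2 above, where it called 8.77% of all genes above. No member was called in both models, or 1 higher without MPP2 1.

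Of 21 interferon response genes measured the quantile-normalized model called 6, all with MPP2 below, where it called 7.78% of all genes below. None was called in both models, with medians of -0.27 and -0.53, but 2 were lower without MPP2 3 and 1 without MPP2 2. Of 18 genes of adhesion and homing 1 was lower in MPP2, where 0.848% of all genes were lower. Cd24a, the heat stable antigen, was among the brightest genes in both, at 12.04, 11.89 and 11.54 in MPP2 and 12.38, 12.46, 12.42, 12.22 and 12.29 in MPP4. The groups did not overlap, the differences were -0.53 and -0.79 (limma adjusted p = 0.00457 and 0.0234), and the call ended without MPP3 1, MPP3 2 or MPP4 5 (adjusted p 0.0541 to 0.0737).

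The genes of the sort markers serve as a check of the gates and are not findings. Flt3, which encodes Flk2, stood at 7.87, 8.81 and 8.07 in MPP2 and at 11.11, 10.70, 10.87, 11.98 and 11.77 in MPP4, with differences of -3.04 (SE 0.22, limma adjusted p = 4.97e-10) and -3.49 (SE 0.32, limma adjusted p = 1e-06). Slamf1, which encodes CD150, read 6.74, 6.44 and 7.30 in MPP2 and 5.74, 5.15, 5.48, 5.46 and 5.49 in MPP4, with 1.36 and 1.36 and a set-adjusted limma adjusted p of 0.0539. Both differ in the direction of the gates, with no overlap. Cd48, which gates MPP2 alone, read 10.37, 9.92 and 9.24 in MPP2 and 9.85, 9.72, 10.01, 10.49 and 10.06 in MPP4, and Kit 10.98, 11.08 and 11.20 and 10.95, 10.99, 10.97, 11.17 and 10.86. These overlapped. Cd34, which gated neither, read 11.17, 11.10 and 11.08 in MPP2 and 11.89, 11.80, 11.72, 11.93 and 11.82 in MPP4, without overlap and with -0.72 and -0.71 (limma adjusted p = 0.000548 and 0.186).

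Markers of other cells were measured for what the gates could carry along. No member was called in both models among 12 genes of mature B and plasma cells, 18 of T and NK cells, 13 of mature neutrophils, 14 of macrophages and 16 of endothelium and stroma. Of the last, 3 were called without MPP2 3 (2 higher and 1 lower), and 1 was higher without MPP4 4 or without dim genes. The mean level over the B and plasma cell genes was 6.97 to 7.79 in the MPP2 arrays, 6.66 to 6.93 in the MPP4 arrays and 8.18 to 8.27 in the MPP3 arrays. The MPP3 arrays, through which the set-adjusted difference runs, had the highest level. The part of such cells in the differences of lymphoid genes was not tested. Jchain, the joining chain of secreted antibodies, read 5.65, 11.28 and 6.75 in MPP2 and 4.52, 5.59, 4.68, 4.71 and 4.24 in MPP4. MPP2 2 was far above the other MPP2 arrays, and the differences were 3.14 (SE 0.71, limma adjusted p = 0.00348) and 2.84 (SE 1.60, limma adjusted p = 0.367). The ranges for neutrophil genes (6.45 to 6.68 in MPP2 and 6.31 to 6.48 in MPP4) and for T and NK genes (6.59 to 6.65 and 6.50 to 6.62) overlapped. Those for macrophage genes, 6.55 to 6.66 in MPP2 and 6.35 to 6.49 in MPP4, did not. The labels give no sex. Xist, the RNA of the inactive X chromosome, stood at 5.82, 11.53 and 5.50 in MPP2 and 5.34, 11.40, 9.92, 11.91 and 5.60 in MPP4, and the Y-linked Eif2s3y at 9.02, 3.99 and 9.33 and 9.18, 7.68, 9.42, 4.12 and 9.06. High Xist with low Eif2s3y was seen in MPP2 2 and MPP4 4, and MPP4 2 and 3 had signal of both. MPP3 read 5.61, 5.61 and 11.90 for Xist and 9.22, 9.03 and 4.00 for Eif2s3y, so MPP3 3 differed in them from its replicates. None of the sex-linked genes was called, and sex was not a term in the models.

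The set-adjusted difference can be read as its parts, which are given as values without a test of their own. Over the genes higher in MPP2 the median part between MPP2 and MPP3 1 and 2 was 0.32, and that between MPP3 3 and MPP4 4 and 5 was 0.47. Over the genes lower they were -0.63 and -0.75. Some genes differed mainly at the first part. Cd53 had -2.37 between MPP2 and MPP3 1 and 2, and -0.33 between MPP3 3 and MPP4 4 and 5, and Gp5 had 1.55 between MPP2 and MPP3 1 and 2, and 0.29 between MPP3 3 and MPP4 4 and 5. Others differed mainly at the second. Wfdc17 had -0.40 between MPP2 and MPP3 1 and 2, and -3.14 between MPP3 3 and MPP4 4 and 5, and Slc18a2 had 0.38 between MPP2 and MPP3 1 and 2, and 1.50 between MPP3 3 and MPP4 4 and 5. For Dntt and Satb1 both parts were large. Dntt had -2.68 between MPP2 and MPP3 1 and 2, and -1.80 between MPP3 3 and MPP4 4 and 5, and Satb1 had -2.12 between MPP2 and MPP3 1 and 2, and -1.37 between MPP3 3 and MPP4 4 and 5.

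**Figure D4:**
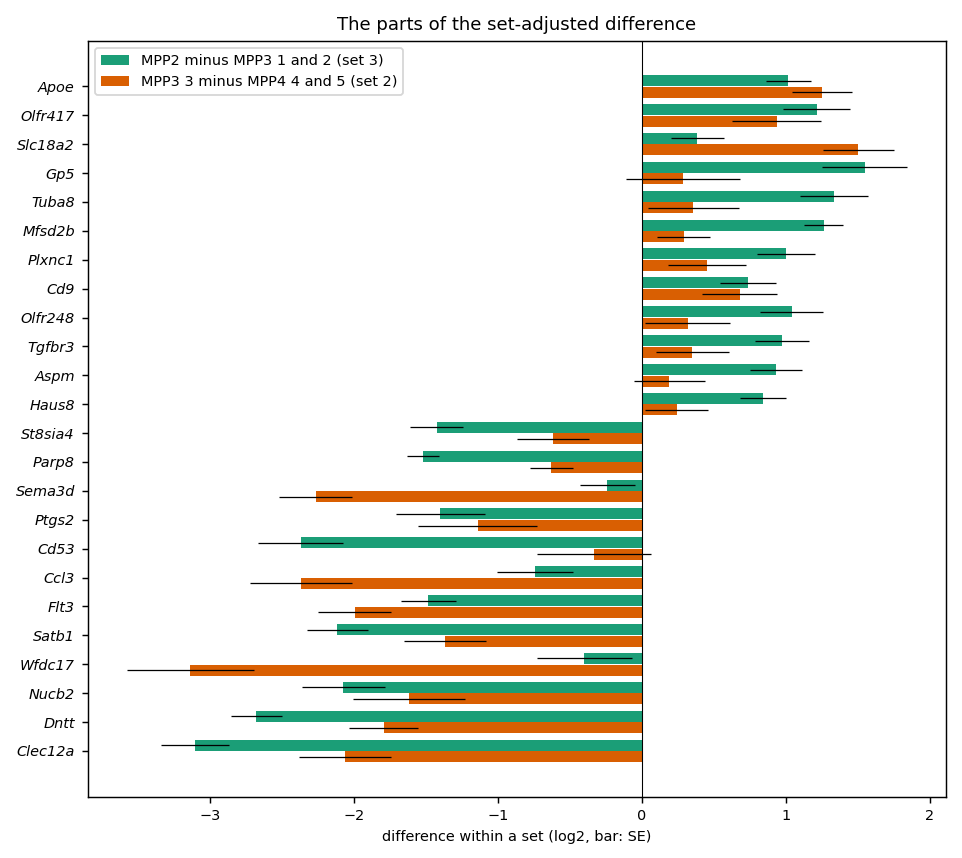
For each of the 24 genes with the largest called differences, green bars give MPP2 minus the mean of MPP3 1 and 2 (set 3) and orange bars MPP3 3 minus the mean of MPP4 4 and 5 (set 2), in log2 units with SE from the set-adjusted fit. The sum of the bars of a gene is its set-adjusted difference. The green bar is the longer one in Gp5, Mfsd2b and Cd53, and the orange bar in Slc18a2, Ccl3, Wfdc17 and Sema3d.

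The levels in the other populations, given as mean ± SD without a test, place these genes along the series. Set and population are mixed here too. LT-HSC has 4 arrays, MPP2, CMP and ST-HSC 3 each, and the CMP gate as labelled names no Sca1. Pf4 had a mean of 9.36 ± 0.39 in LT-HSC, of 9.73 ± 0.48 for the ST-HSC arrays, 11.33 ± 0.08 in MPP2, 6.87 ± 0.62 in MPP4 and 10.94 ± 0.07 in CMP. Gp5 was at 8.46 ± 0.25 in LT-HSC and 8.63 ± 0.15 in CMP, between its levels in MPP2 (9.49 ± 0.61) and MPP4 (6.87 ± 0.20). The CMP arrays share set 4 with MPP4 1 to 3, and there the CMP mean of both genes lay above each of those 3 MPP4 arrays. Mfsd2b stood out in MPP2 and CMP, at 9.03 ± 0.23 and 9.04 ± 0.11, against 7.44 ± 0.19 in LT-HSC and, in ST-HSC, 7.50 ± 0.10. Itga2b had 9.11 ± 0.08 in CMP and 8.06 ± 0.04 in LT-HSC. Cd9 read most in Gr, at 11.01 ± 0.07, and had 9.10 ± 0.41 in LT-HSC and 9.10 ± 0.38 in MPP2. Vwf had 8.69 ± 0.42 in LT-HSC, 7.86 ± 0.14 in MPP2 and 7.83 ± 0.13 in Gr. A high level of Cd9 or Vwf is therefore not particular to MPP2. Slc18a2 and Gata2 were at stem cell level in MPP2, with Slc18a2 at 10.07 ± 0.17 in LT-HSC and 10.09 ± 0.15 in MPP2, and Gata2 at 9.02 ± 0.21 and 9.27 ± 0.34. These neighbours do not differ beyond their spread.

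Genes lower in MPP2 split by whether stem cells had them. Dntt had means of 5.63 ± 0.22 (LT-HSC) and 5.86 ± 0.20 (ST-HSC), near its MPP2 level of 6.12 ± 0.28, and at 9.27 ± 0.23 in CMP. Sema3d stood at 7.72 ± 0.45 in MPP4 and between 5.41 and 5.77 (means) in the other 8 populations. Satb1 had 7.85 ± 0.12 in LT-HSC, 8.83 ± 0.44 for ST-HSC and 10.12 ± 0.07 in CMP, against 7.79 ± 0.40 in MPP2 and 10.98 ± 0.34 in MPP4. Lax1, by contrast, read less in MPP2 (6.95 ± 0.27) than in LT-HSC (7.81 ± 0.17) and in ST-HSC (8.08 ± 0.31), a comparison that was not tested here. Ltb read more in ST-HSC (10.79 ± 0.33) and LT-HSC (9.95 ± 0.24) than in MPP4 (9.29 ± 0.41), which was not tested either. Ccl3 had 7.44 ± 0.51 in LT-HSC and 10.41 ± 0.20 in MPP4, with 10.29 ± 0.41 in PreGr and 10.12 ± 0.18 in Gr. Wfdc17 had 10.66 ± 0.10 in PreGr against 9.71 ± 0.68 in MPP4, and Satb1 had 10.61 ± 0.27 in Gr. Irf8 read more in CMP (8.93 ± 0.20) and GMP (9.32 ± 0.31) than in MPP4 (7.81 ± 0.45). High levels of Ccl3, Wfdc17, Satb1 and Irf8 are therefore not particular to MPP4. Clec12a and Nucb2 read more in GMP than in MPP4, at 10.95 ± 0.08 and 10.81 ± 0.20. Cd53 and Cd52, listed above with the lymphoid receptors, read most in Gr, at 12.80 ± 0.11 and 12.59 ± 0.01. In MPP4 they were at 11.55 ± 0.11 and 9.70 ± 0.30, so a high level of them is not particular to MPP4.

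**Figure D5:**
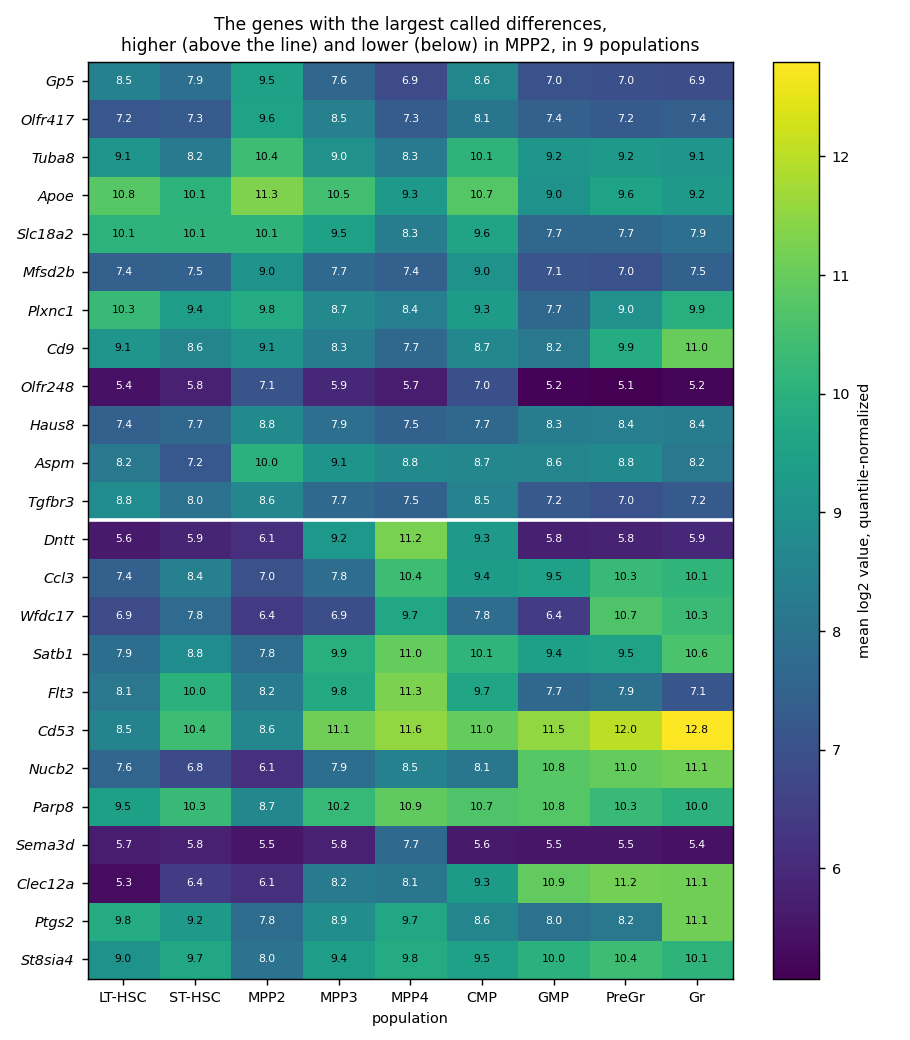
Mean quantile-normalized log2 value of the 24 genes with the largest called differences in each of 9 populations, with the 12 genes higher in MPP2 above the white line and the 12 lower below it. Mfsd2b and Olfr248 are brightest in MPP2 and CMP, Sema3d in MPP4 alone of these populations, and Clec12a and Nucb2 brightest from GMP to Gr.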

How the data were processed

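Expression was measured on whole-transcript gene arrays. The authors deposited log2 values made by RMA, per the submitters' processing notes, for 35557 probes, and its version and settings are not given in the sources used here. Of these probes 21789 have 1 gene, 1621 several and 12147 none in the platform annotation. Only the first kind was used, and 21698 matched a current identifier. They cover 19938 genes, of which 999 had several probes, and these were read from their brightest one. Values were quantile normalized and fitted with limma 3.58.1 in R 4.3.3 (lmFit, contrasts.fit, eBayes). The residual degrees of freedom were 22, and 18 with the set of arrays as a block. Sets are arrays linked by 2 or more equal values. Arrays of the compared groups correlated at 0.949 to 0.973, MPP2 arrays at 0.966 to 0.976 and MPP4 arrays at 0.961 to 0.993. The fits were tested on simulated data. Named genes were the 12 largest per direction among called genes without overlap between the groups, ranked by the smaller of their differences in the 2 fits (predicted genes passed over), up to 6 called members per list, the sort markers and a fixed list. Cavin2, Itgb3, Gp9, Car1, Fcer1a, Crlf2, Tcf4, Notch1, Mef2c, Runx3, Bcl11b, Lmo2 and Jchain fall outside this rule and were chosen after their values were seen. The members and lists were chosen with earlier results of these data known. Lists are described by counts and medians, with no test. Alternatives covered normalization, arrays used, probe choice, dim genes, weights, empirical Bayes options, blocks and leaving out arrays. Figures used matplotlib 3.10.9 in Python 3.11.15.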

Additional observations from a re-analysis of the deposited data

Results flagged for a closer look

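In 64 named genes the 5 MPP4 arrays were searched for a highest or lowest array set apart from the rest, and in 16 of them the 4 LT-HSC arrays as well. Chance marks about 1 in 20 such groups, and 5 and 1 were found. MPP4 4 was set apart in Cd9, where it read 7.14 against 7.72 to 7.92 in the other MPP4 arrays. It was also set apart in F2r, at 8.93 against 8.13 to 8.36, and in Lax1, at 8.85 against 8.35 to 8.45. MPP4 5 was set apart in Rag1, at 8.78 against 6.87 to 7.25, and in Ebf1, at 6.68 against 5.76 to 5.92. LT-HSC 4 was set apart in Dntt, at 5.96 against 5.50 to 5.55. MPP4 4, MPP4 5 and LT-HSC 4 all lie in set 2, and what sets them apart was not tested.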

How the results depend on the processing

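The values below are counts of called genes, and the cause of a change was not tested unless said. In both models together the main 230 calls (61 higher and 169 lower in MPP2) became 125 with median centring (14 and 111), 107 with deposited values (82 and 25) and 61 with only stem and multipotent arrays (6 and 55), of which 103, 39 and 60 were among the 230. Means of probes gave 223, no dim genes 249, array weights 167 (34 and 133) and the trend and robust options 210. Leaving out 1 array gave 99 to 523 (MPP3 1 and MPP2 3). The set-adjusted model's 541 (266 and 275) became 236 with median centring (59 and 177), 217 with deposited values, 122 with stem and multipotent arrays (26 and 96) and 299 with array weights (106 and 193), and leaving out 1 array gave 185 to 1189. The quantile-normalized model's 3300 became 16813 with deposited values (16747 and 66), where the median gene shifts by 0.80, 2024 with stem and multipotent arrays, 1213 with the 8 arrays alone, 2283 with MPP4 4 and 5 only, 4094 with MPP4 1 to 3 only and 413 (143 and 270, consensus correlation 0.553) with the set as a random block. Leaving out 1 array gave 1824 to 3681. Without MPP3 3 the set-adjusted model could not be fitted, by its construction. With the replicate number as a block the quantile-normalized model called 4484, and the set-adjusted contrast could not be estimated. Same-numbered MPP2 and MPP4 arrays had residual correlations of -0.0352, -0.00574 and 0.155, the last the highest of all MPP2 and MPP4 pairs. So few arrays, in different sets, cannot decide whether the numbers pair them, and the main models held no pairing. No named gene that was called changed direction under any alternative. Differences that did were of genes not called, and a range is over the arrays left out in turn. In the quantile-normalized model Ebf1 gave 0.048 (replicate block), 0.047 (MPP4 1 to 3 only) and -0.18 to 0.050 (one array out, the last without MPP4 5). In the set-adjusted model it gave 0.019 (median centring) and -1.25 to 1.08, with 0.35 without MPP4 5. Kit gave -0.0055 (deposited values) and, set-adjusted, -0.24 (deposited values), -0.19 (median centring) and -0.094 to 0.21. Uty gave -0.063 (array weights), -0.33 (replicate block), -0.36 (MPP4 1 to 3 only), -1.43 (random block) and -0.52 to 1.22. Fcgr3 gave 0.0086 (replicate block), -0.10 to 0.055 and, set-adjusted, -0.30 to 0.059. Fcgr2b gave 0.057 (MPP4 4 and 5 only), -0.42 to 0.035 and, set-adjusted, -0.43 to 0.032. Eif2s3y gave 0.86 (MPP4 4 and 5 only) and -1.39 to 1.29, Kdm5d -0.83 to 0.51, Mecom 0.12 (MPP4 4 and 5 only) and -0.26 to 0.0080, Cd48 -0.44 to 0.12, and Xist 2.25 (random block). Dim genes such as Rag2 lie near the floor of the array, which limits the size of their differences.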

Other observations

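Other called genes were chosen by eye after their values were seen and are given as values with no test beyond the call of each gene, and nothing is claimed for a group. In each pair of differences (MPP2 minus MPP4, log2) the quantile-normalized one comes first and the set-adjusted one second. Beside Ccl3, the cytokine gene Tnf (-1.05 and -1.53) and the interleukin 18 receptor chain gene Il18rap (-1.45 and -1.80) were lower in MPP2. So were Sting1 (-1.10 and -1.57), an adaptor of DNA sensing, the pore-forming protein gene Mpeg1 (-1.37 and -2.53) and Ncf1, a subunit of the phagocyte oxidase (-1.12 and -0.95). Also lower were Tox (-1.23 and -2.06), needed for several lymphoid lines, Arid5b (-1.11 and -1.21), and the histone variants Macroh2a1 (-0.91 and -1.05) and Macroh2a2 (-1.59 and -2.25).

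Of single genes with a part in glycan synthesis, those lower in MPP2 include Cmah (-1.43 and -2.35), which modifies sialic acid, B3gnt5 (-0.83 and -2.07) and B4galt6 (-0.79 and -2.14), which extend glycolipids, Man1a (-1.25 and -1.35) and Mgat1 (-0.60 and -0.92), which process N-glycans, and Chst11 (-0.44 and -0.86), a chondroitin sulfotransferase. Fut8 (0.61 and 1.20), which adds core fucose, and Ngly1 (0.69 and 1.35), which removes N-glycans, were higher. The tetraspanin genes Tspan2 (-1.59 and -2.03) and Tspan6 (-1.59 and -3.15) were lower, as was Cd53, while Cd9 was higher. The homotypic adhesion receptor gene Alcam (-1.56 and -1.27), Emb (-1.77 and -2.02), a basigin relative, and the SLAM family gene Ly9 (-1.32 and -0.97) were lower. E2f7 (0.66 and 0.94), a repressor of cell cycle genes, and Zfp385a (0.99 and 1.19), which has a known part in megakaryocyte maturation, were higher in MPP2.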
